A study of Mus musculus with 5 samples.

Results

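The 10 genes described here encode factors that license DNA replication origins and fire them: Cdt1, Cdc6, Gmnn, Orc1, Orc6, Cdc45, Gins1, Gins2, Gins3 and Gins4. They were chosen by name, with earlier results of these data known, so counts of members beside shares of all features are descriptive only. Probes whose annotated gene symbol is one of these were taken. They covered 12 of the 44290 features on the array and 10 of its 19087 genes. The samples were cultures of N18, a mouse neuroblastoma line, infected with an adenovirus carrying the coding sequence of Dyrk1a (pAd-Dyrk1a) or, as the control, with the pAd-Track-CMV adenovirus vector, so both sides of every comparison carried virus. No infection time or dose is given in the labels. On each of 5 two-colour arrays, RNA of 1 Dyrk1a sample and of 1 control vector sample was hybridised together. The Dyrk1a RNA was labelled with Cy5 on replicates 1, 2 and 3 and with Cy3 on replicates 4 and 5. Dye orientation and replicate set thus go together, so an effect of the dye and any other difference between these replicates cannot be told apart. DYRK1A is a protein kinase, and the comparison asks which transcripts differ when its gene is overexpressed.

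An origin is licensed in G1 phase, when the origin recognition complex (ORC), CDC6 and CDT1 load the ring-shaped MCM helicase onto DNA in an inactive form. Geminin, the product of Gmnn, binds CDT1 and blocks further loading once S phase has begun. Firing follows when CDC45 and the GINS complex, built from the products of Gins1 to Gins4, join the loaded MCM ring and turn it into the active replicative helicase. Many of these genes are transcribed around the start of S phase under E2F transcription factors. In human cells DYRK1A phosphorylates LIN52 and so promotes assembly of DREAM, a complex that represses cell-cycle genes.

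Every value below is a log2 ratio with Dyrk1a on top and control vector underneath, so a value below 0 means a lower signal with Dyrk1a. A centred log2 ratio is the deposited value minus the median of that array over the 14307 features with a value on all 5 arrays, where the probes of a gene were averaged. Changes were fitted over those features with limma, with a term for the dye, and Benjamini-Hochberg adjustment ran over all of them. Of the 3 Dyrk1a probes, 1, the reference probe, was measured on all arrays. It lay between 1.93 and 3.02 on the centred log2 scale over the 5 arrays, and its fitted log2 change was 2.46 (SE 0.12, limma adjusted p = 0.0139). That call was lost without replicate 1, 4 or 5, at limma adjusted p = 0.334, 0.0985 and 0.0521, with log2 changes of 2.41, 2.30 and 2.63. Averaging whichever Dyrk1a probes were measured gave 1.16 (SE 0.062, limma adjusted p = 0.0266). Replicate 2 stood apart, with an interquartile range over features of 0.293, against 0.153 to 0.175 on the other arrays. Markers of the labelled and of other cell types could be read only as ratios, not levels. Among 5 tested sympathetic neuroblast markers, 2 fibroblast markers and 1 immune marker, 0 passed the limma threshold and 0 had an unadjusted p under 0.05, with log2 changes between -0.044 and 0.15, and 0 glial markers had a value on all arrays.

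The RNA of all 10 origin factors had a fitted log2 change below 0 with Dyrk1a, by small amounts, from -0.33 for Cdt1 to -0.081 for Gins4. The median was -0.20, against 0.0047 over all tested features. Of the tested features 47.0% had a fitted change below 0. All 12 probes were measured on all 5 arrays, so every member was tested. At an adjusted p under 0.05 limma called 0 of the 10, where 0.00699% of all features were called, which is Dyrk1a alone. At an unadjusted p under 0.05 limma put 8 of the 10 lower, against 6.54% of all features. Cdc6 is among the 8 as an average, while its probes fitted singly had unadjusted limma p of 0.056 and 0.31. An adjusted p under 0.10 was reached by 3 members, Cdt1, Gmnn and Gins1, against 0.769% of features lower at that level. Of these, Gmnn alone stayed under 0.10 without the dye term. The limma adjusted p was then 0.0650 for Gmnn, 0.121 for Gins1 and 0.200 for Cdt1. In RNA from whole cultures, fewer cells in the phases that express these genes and less RNA per cell cannot be told apart.

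The arrays themselves were less uniform than the fitted changes. The log2 ratio was below 0 on all 5 arrays for 7 of the 10 genes, and 6.26% of all features had that pattern. The exceptions were Orc6, Gins2 and Gins4. Cdc6 is among the 7 only as the average of its probes, neither of which had the pattern alone. By array, 9, 8, 9, 9 and 10 members were below 0 in replicates 1 to 5, and the mean over members was -0.26, -0.22, -0.22, -0.18 and -0.17.

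**Figure D1:**
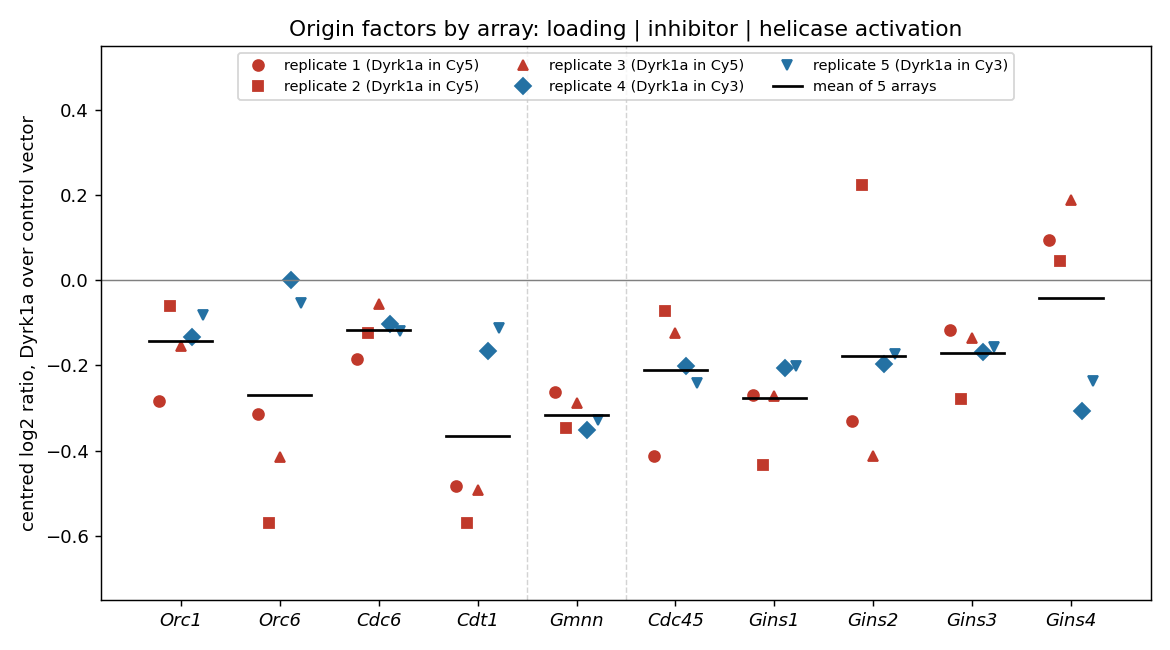
Centred log2 ratio of Dyrk1a over control vector (vertical axis) for each of the 10 genes, with 1 point per array, red where Dyrk1a RNA carried Cy5 and blue where it carried Cy3, and a bar at the mean of the 5 arrays. Gmnn lies in a narrow band from -0.35 to -0.26. Cdt1, Orc6 and Gins4 separate widely by dye orientation and Gins1 narrowly, and Gins2 has 1 point, replicate 2, at 0.22.

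Among the loading factors, Cdt1 had the lowest fitted change. Its centred log2 ratios were -0.48, -0.57 and -0.49 in replicates 1 to 3 and -0.17 and -0.11 in replicates 4 and 5. Every array was below 0, and the arrays with Dyrk1a in Cy5 lay below both arrays with it in Cy3. The fitted log2 change of -0.33 (SE 0.035, 95% interval -0.41 to -0.24) is a 1.25-fold lower level, with a limma adjusted p of 0.0605. Only 0.517% of tested features had a lower fitted change. Without the dye term the Cdt1 log2 change was -0.36 (SE 0.080, limma adjusted p = 0.200).

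Orc6, the smallest and most loosely held ORC subunit, also split by dye orientation. Its log2 ratios were -0.32, -0.57 and -0.42 in replicates 1 to 3, but 0.0015 and -0.054 in replicates 4 and 5. The second set is close to 0. Its fitted log2 change was -0.23 (SE 0.047, limma adjusted p = 0.157), and without the dye term -0.27 (SE 0.090, limma adjusted p = 0.417). Orc1, the largest ORC subunit, an ATPase whose level varies over the cell cycle in mammals, had log2 ratios of -0.28, -0.061, -0.16, -0.13 and -0.082 in replicates 1 to 5. All were below 0, with replicate 1 the lowest, and the fitted log2 change was -0.14 (SE 0.044, limma adjusted p = 0.330).

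Cdc6, the ATPase that joins ORC before CDT1 arrives, was read by a pair of probes that did not follow each other. The centred values of feature 39700 were -0.17, 0.15, -0.17, -0.33 and -0.15 in replicates 1 to 5. Feature 44161 had -0.20, -0.40, 0.056, 0.12 and -0.089. Each probe was above 0 where the other was below it, in replicate 2 for the first and in replicates 3 and 4 for the second. Their average, from -0.18 to -0.056, was below 0 on all 5 arrays and had an SD of 0.046, against 0.17 and 0.21 for the single probes. The narrow spread of the Cdc6 value is thus that of an average of opposed probes. The fitted log2 change was -0.12 (SE 0.036, limma adjusted p = 0.313), and with each probe tested alone it was -0.15 (limma adjusted p = 0.508) and -0.082 (limma adjusted p = 0.779).

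**Figure D2:**
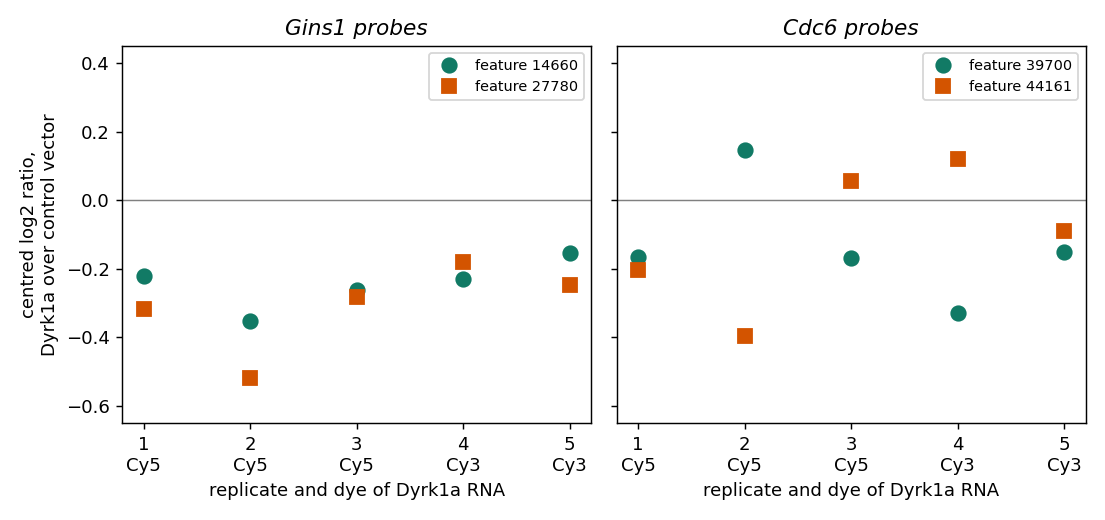
Centred log2 ratio of Dyrk1a over control vector (vertical axis) on each array (horizontal axis, with the dye of the Dyrk1a RNA) for the 2 probes of Gins1 and the 2 probes of Cdc6. Both Gins1 probes stay below 0 on every array, while the Cdc6 probes lie on opposite sides of 0 in replicates 2, 3 and 4.

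Gmnn, which encodes the licensing inhibitor geminin, had the most even values of the single-probe members. Its log2 ratios were -0.26, -0.35 and -0.29 in replicates 1 to 3 and -0.35 and -0.33 in replicates 4 and 5, a mean of -0.32 ± 0.039 (SD, n = 5). Arrays of both orientations overlapped. The fit gave a log2 change of -0.32 (SE 0.034, 95% interval -0.40 to -0.24), which is a 1.25-fold lower level, with a limma adjusted p of 0.0605. Geminin and its target Cdt1 thus had nearly equal fitted changes, but their order turned with the dye orientation. Gmnn minus Cdt1, a difference of log2 ratios within each array, was 0.22, 0.22 and 0.20 in replicates 1 to 3, against -0.19 and -0.22 in replicates 4 and 5.

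Of the factors that activate the helicase, Gins1 had the lowest fitted change. The centred values of feature 14660 were -0.22, -0.35, -0.26, -0.23 and -0.16 in replicates 1 to 5, and feature 27780 had -0.32, -0.52, -0.28, -0.18 and -0.25. Both probes were below 0 on every array. Their average was -0.27, -0.43 and -0.27 in replicates 1 to 3 and -0.205 and -0.201 in replicates 4 and 5. The orientations thus did not overlap, by a narrow gap. For the gene the fit gave -0.26 (SE 0.041, 95% interval -0.36 to -0.16), a 1.20-fold lower level, with a limma adjusted p of 0.0909.

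Cdc45, the factor that joins the MCM ring together with GINS, had log2 ratios of -0.41, -0.072, -0.12, -0.20 and -0.24 in replicates 1 to 5. All were below 0, with replicate 1 the lowest, and the fitted log2 change was -0.21 (SE 0.058, limma adjusted p = 0.258).

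The other GINS subunits, whose proteins sit in 1 complex with that of Gins1, differed in how their arrays behaved. Gins3 had log2 ratios of -0.12, -0.28, -0.14, -0.17 and -0.16 in replicates 1 to 5, all below 0, and a fitted log2 change of -0.17 (SE 0.040, limma adjusted p = 0.192). Gins2 had -0.33, 0.22, -0.41, -0.20 and -0.17, so that replicate 2 alone lay above 0. Its fitted log2 change was -0.18 with a wide interval, -0.42 to 0.061 (SE 0.098, limma adjusted p = 0.580). Gins4 had 0.094, 0.046 and 0.19 in replicates 1 to 3 and -0.31 and -0.24 in replicates 4 and 5. The orientations lay on opposite sides of 0 without overlap, and the fitted log2 change was -0.081 (95% interval -0.18 to 0.013, limma adjusted p = 0.524). Without the dye term it was -0.043 (SE 0.082, limma adjusted p = 0.911). Gins4 minus Gins1, within each array, was 0.36, 0.48 and 0.46 in replicates 1 to 3, against -0.10 and -0.035 in replicates 4 and 5, so a difference between these subunits of 1 complex was large in the Cy5 orientation alone.

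**Figure D3:**
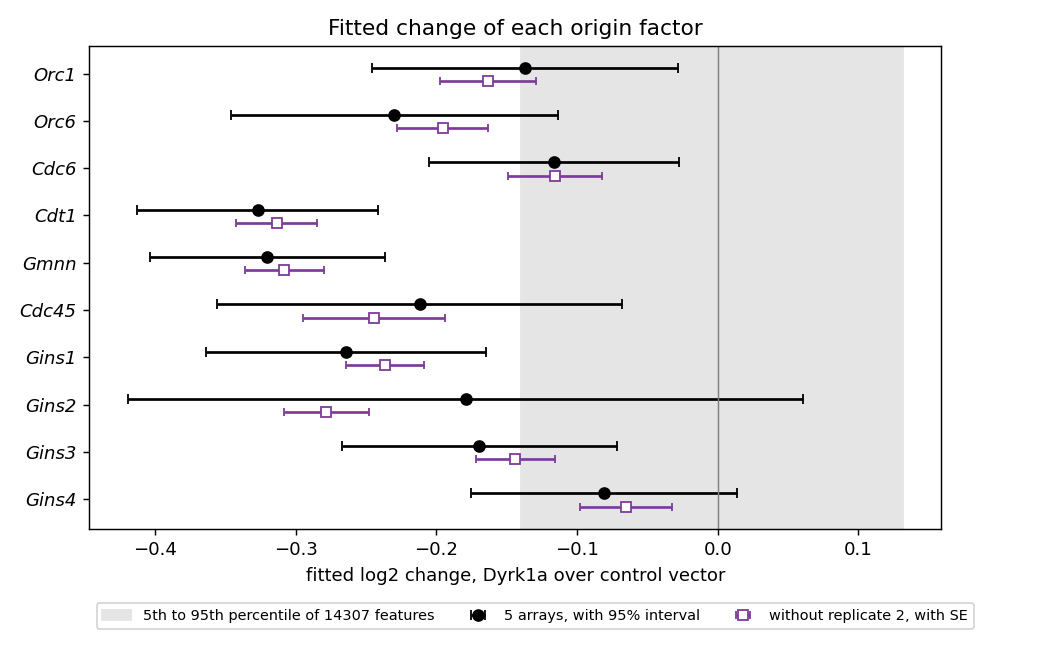
Fitted log2 change of Dyrk1a over control vector (horizontal axis) for each gene, as black points with 95% intervals from all 5 arrays and open squares with SE from the 4 arrays without replicate 2, over a grey band from the 5th to the 95th percentile of all tested features, -0.14 to 0.13. Cdt1, Gmnn and Gins1 have intervals wholly below the band, and Gins2 moves from -0.18 to -0.28 without replicate 2.

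Which members passed the threshold depended on replicate 2 and on how the arrays were scaled. Without replicate 2 limma called 5 of the 10 lower, where 2.35% of all features were called lower. These were Cdt1 at -0.31 (limma adjusted p = 0.0192), Gmnn at -0.31 (limma adjusted p = 0.0192), Gins2 at -0.28 (limma adjusted p = 0.0205), Gins1 at -0.24 (limma adjusted p = 0.0222) and Orc6 at -0.20 (limma adjusted p = 0.0399). The Orc6 call rests on replicates 1 and 3, as its values in replicates 4 and 5 were 0.0015 and -0.054. Gins2 moved by more than 1.5 times, since its replicate 2 value was the one above 0. The others not called there had limma adjusted p of 0.0577 for Gins3, 0.0653 for Cdc45, 0.0675 for Orc1, 0.141 for Cdc6 and 0.342 for Gins4. With any other single array left out 0 of the 10 passed, and each of the 10 fitted changes was below 0 with any 1 array left out. With the arrays scaled to the same spread, limma called 4 of the 10 lower, Cdt1, Gmnn, Gins1 and Orc6, against 1.49% of features. Quantile normalization also gave 4, against 1.39%. Array weights, which gave replicate 2 a weight of 0.15 and replicate 1 one of 3.74, brought 9 past the threshold, all but Gins4, against 6.4%.

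In 3 of the 10 members, Cdt1, Orc6 and Gins4, the values also split widely by dye orientation. The mean log2 ratio of Cdt1 was -0.52 over the 3 arrays with Dyrk1a in Cy5 and -0.14 over the 2 with it in Cy3, a difference of -0.38 (limma adjusted p of the dye term = 0.0562). For Orc6 these means were -0.43 and -0.026, a difference of -0.41 (limma adjusted p of the dye term = 0.103). For Gins4 they were 0.11 and -0.27, a difference of 0.38 in the other direction (limma adjusted p of the dye term = 0.0738). The fitted dye term, the shift of either orientation from their midpoint, was -0.19 for Cdt1, -0.20 for Orc6 and 0.19 for Gins4. In size it was below the fitted Dyrk1a change of Cdt1, -0.33, and of Orc6, -0.23. It was above that of Gins4, -0.081. Cdt1, Orc6 and Gins4 are the 3 of 10 members with an unadjusted dye p under 0.05, where 17.2% of all features had one. At an adjusted p under 0.05 limma called a dye effect in 0 of the 10 and in 2.98% of all features. The other members had adjusted p of the dye term from 0.507 to 0.983. Gins1 is among them, though its orientations did not overlap, with means of -0.33 in Cy5 and -0.20 in Cy3. In both orientations the mean was below 0 for every member but Gins4.

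**Figure D4:**
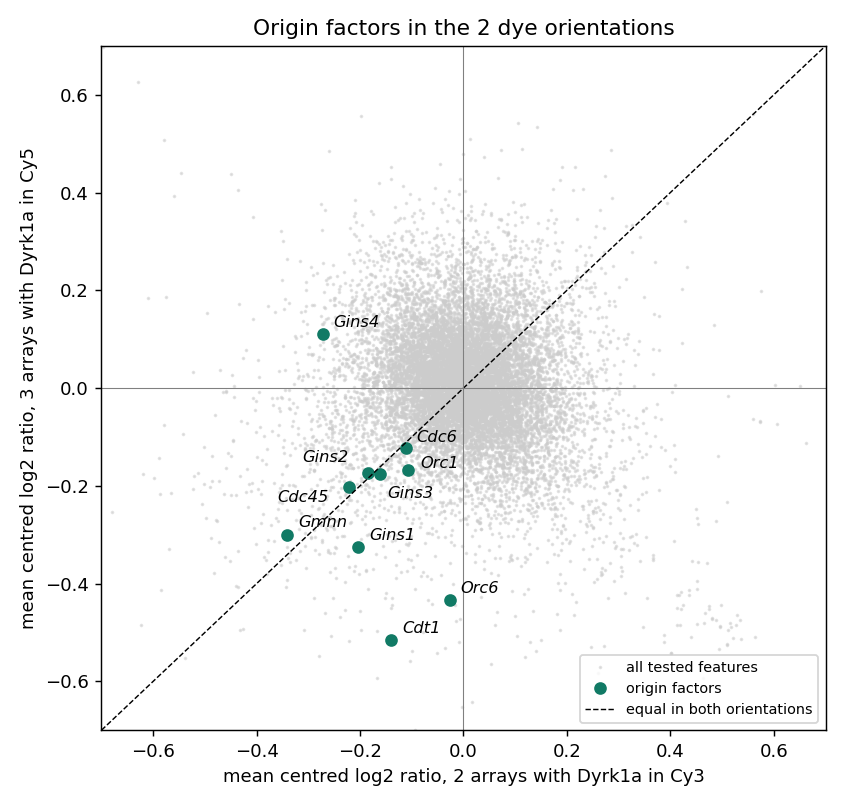
Mean centred log2 ratio over the 3 arrays with Dyrk1a in Cy5 (vertical axis) against the mean over the 2 arrays with it in Cy3 (horizontal axis), in green for the 10 genes and grey for all tested features, with a dashed line where both are equal. Of the 10, 9 lie in the lower left corner, Cdt1 and Orc6 well below the line, and Gins4 lies in the upper left corner at -0.27 and 0.11.

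The upstream sequences of members with a promoter window were searched for sites of the E2F and DREAM pathway, whatever their fitted change. The other 4 members, Gmnn, Gins1, Gins2 and Gins4, had no window and were not searched. RefSeq promoter windows of build GRCm38.p6, running from 250 bases before to 50 after a transcript start, were matched for 6 of the 10 members: Cdt1, Cdc6, Orc1, Orc6, Cdc45 and Gins3. An E2F word was any of TTTCCCGC, TTTGGCGC, TTTCGCGC and TTTGCCGC on either strand, and the cell-cycle homology region (CHR), a DREAM element, was TTTGAA on either strand. In the member windows no E2F match overlapped a CHR match. An E2F word was present in 4 of the 6 windows, those of Cdt1, Cdc6, Orc1 and Gins3, against 2.26% of 32851 windows of the same length. A CHR was present in 2 of the 6, those of Gins3 and Cdc45, against 17.9% of windows. The 3 members with the E2F word before the start are shown over their 250 upstream bases, and Cdt1 over the 30 bases around its match, with E2F and CHR matches in capitals, each read 5′ to 3′ along the plus strand, which is the gene's strand. The windows are chr4:108579204-108579453 for Orc1, chr11:98907901-98908150 for Cdc6, chr8:95633309-95633558 for Gins3 and chr8:122568030-122568059 for Cdt1.
Orc1: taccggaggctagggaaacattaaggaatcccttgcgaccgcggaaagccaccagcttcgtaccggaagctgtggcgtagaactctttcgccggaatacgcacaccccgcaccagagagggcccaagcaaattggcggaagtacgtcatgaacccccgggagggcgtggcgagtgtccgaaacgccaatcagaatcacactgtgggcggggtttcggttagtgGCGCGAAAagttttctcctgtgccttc
Cdc6: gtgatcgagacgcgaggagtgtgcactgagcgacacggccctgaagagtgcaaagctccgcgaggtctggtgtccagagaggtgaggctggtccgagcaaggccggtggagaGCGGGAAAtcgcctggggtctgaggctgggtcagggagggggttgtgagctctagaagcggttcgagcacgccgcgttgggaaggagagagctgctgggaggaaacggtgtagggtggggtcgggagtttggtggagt
Gins3: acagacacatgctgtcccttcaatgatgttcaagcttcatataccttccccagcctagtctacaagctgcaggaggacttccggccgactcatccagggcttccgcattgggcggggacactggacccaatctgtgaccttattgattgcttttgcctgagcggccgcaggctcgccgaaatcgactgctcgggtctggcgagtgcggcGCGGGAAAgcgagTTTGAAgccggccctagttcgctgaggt
Cdt1: tccgcgggaactaccttTTTGGCGCcatgg

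Counted from the transcript start, with negative positions before it, the E2F word lay at -27 to -20 in Orc1, at -138 to -131 in Cdc6 and at 33 to 40 in Cdt1. In Gins3 it lay at -41 to -34 and the CHR a few bases further on, at -28 to -23. The Cdc45 window held a CHR at -240 to -235 and another, on the opposite strand, at 11 to 16. The 4 genes with an E2F word spanned nearly the whole range of fitted log2 changes, from -0.33 for Cdt1 and -0.17 for Gins3 to -0.14 for Orc1 and -0.12 for Cdc6, and Orc6, with no match of either kind in its window, was at -0.23. A match is a description of these letters and says nothing of binding.

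Other genes of the same steps were read from a list of 37, all of which had a value on every array. Their fitted log2 change was below 0 in 32 and above 0 in 5, where 47.0% of all features were below 0, with a median of -0.17. In limma 0 of the 37 passed in either direction, while at an unadjusted p under 0.05 it put 23 lower and 0 higher, against 6.54% of all features lower and 4.61% higher. Without replicate 2 limma called 17 of the 37 lower, against 2.35% of features. The subunits of the loaded helicase, Mcm2 to Mcm7, had a fitted change below 0 in 6 of 6, with a median of -0.20, but 2 of the 6, Mcm4 and Mcm7, were below 0 on all 5 arrays. Mcm2, Mcm3 and Mcm5, named like Mcm6 after their values were seen, were above 0 in replicate 2. Mcm6 was at 0.086 and 0.12 in replicates 4 and 5 and passed the threshold on the dye term (limma adjusted p = 0.0360). The list's 14 firing genes were below 0 in 14 of 14, with a median of -0.18. Its 13 licensing genes had a median of -0.14, and its 10 genes of turnover and kinase control one of -0.090. Whether these medians differ from that of the 10 factors was not tested.

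The smallest p-values of that list among genes below 0 belonged to Fbxo5, Cdc20, Mcm10, Mcm4 and Mcm7. Fbxo5 encodes EMI1, an inhibitor of the anaphase-promoting complex, the ligase that marks geminin for destruction, and its log2 change was -0.38 (SE 0.042, limma adjusted p = 0.0605). Cdc20, an activator of that ligase, was at -0.29 (SE 0.033, limma adjusted p = 0.0605). Mcm10, which acts on the helicase as the origin fires, was at -0.37 (SE 0.046, limma adjusted p = 0.0762). The helicase subunits Mcm4 and Mcm7 were at -0.29 and -0.27, each with a limma adjusted p of 0.0848.

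All 5 genes above 0 had 95% intervals that included 0. Ddb1 and Cul4a, parts of the ubiquitin ligase that removes CDT1 in S phase, were at 0.19 (SE 0.20, limma adjusted p = 0.808) and 0.031 (SE 0.039, limma adjusted p = 0.839). The Ddb1 value rests on replicate 2, at 1.05, and was -0.027 without it. The acetyltransferase gene Kat7 was at 0.017, the ORC subunit gene Orc3 at 0.0093 and the MCM-binding protein gene Mcmbp at 0.0030. Their limma adjusted p lay between 0.936 and 0.990, and the sign of each turned under some other processing settings.

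**Figure D5:**
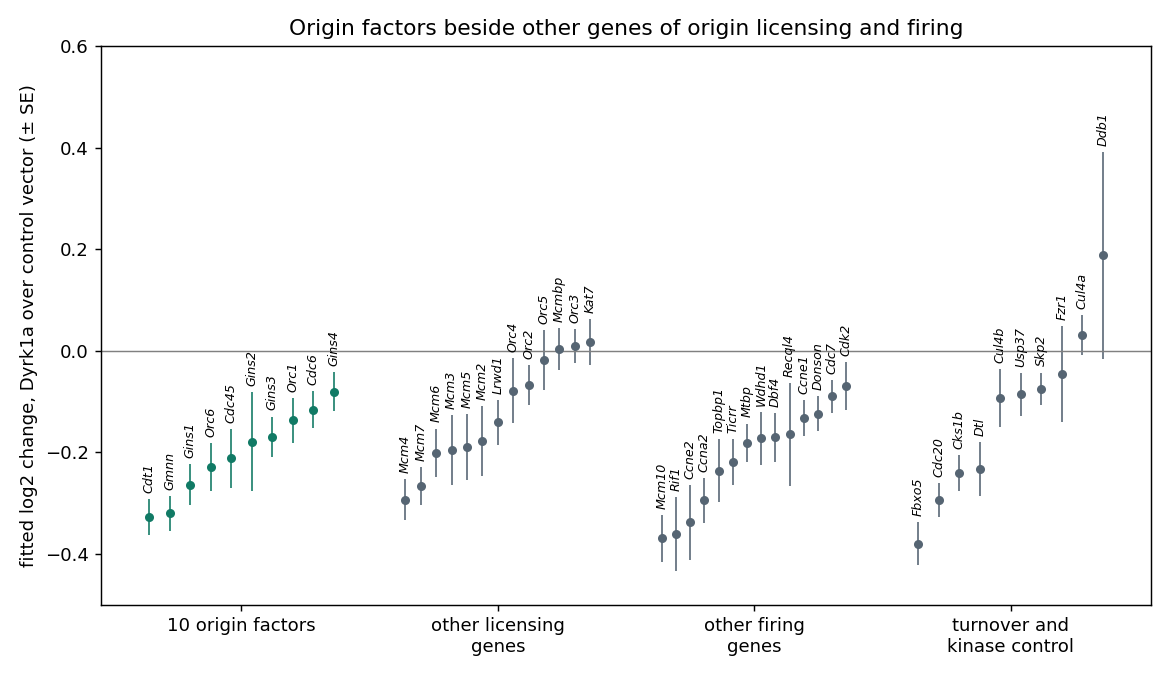
Fitted log2 change of Dyrk1a over control vector with its SE (vertical axis) for the 10 origin factors in green and, in grey, the 37 other genes grouped as licensing, firing, and turnover and kinase control, each group sorted by value. The firing genes all lie below 0, and Ddb1, at 0.19, has the widest error of the plot.

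The tested genes whose 5 centred log2 ratios came closest to the mean profile of the 10 factors were 2700038G22Rik, Apon, Fam133b, Haspin and Depdc1b, of 11181 genes compared. Their root mean square difference from it, over the 5 arrays, was 0.021, 0.038, 0.045, 0.046 and 0.052 on the log2 scale. Their fitted log2 changes lay between -0.23 for Depdc1b and -0.16 for Fam133b, which follows from their choice by the same 5 array values.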

How the data were processed

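The authors' deposited table holds log ratios, read here as log2, for 44290 features in 5 columns, and 0 columns of other samples. Values were blank for part of the features, leaving 28236 to 31001 measured on each array, for a reason not given in the sources used here. Scanning, background correction and normalization are not given in the sources used here. Base and direction are unstated. The base was taken as log2 from the values' range, which cannot exclude natural logs. Dyrk1a over control vector was read from the Dyrk1a probe, above 0 in both dye orientations. If the values were natural logs, no sign or p-value would change, but the fold levels would be larger than printed. The 5 measurements are called independent in the submitters' design description, and the number of arrays limits the precision.

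Gene symbols came from the platform annotation, updated through Entrez identifiers (31906 of 32042 single-gene probes matched). Probes of a gene measured on all 5 arrays were averaged, giving 11191 genes and 3116 other features, and each array was centred on its median. Limma 3.58.1 in R 4.3.3 fitted the Dyrk1a effect and a dye effect, two-sided, with 3 residual and 2.87 prior degrees of freedom, after a test on simulated data. Python 3.11.15 with pandas 2.3.3 and matplotlib 3.10.9 made tables and plots. No intensities were used, so no filter on dim probes was added here.

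The members and lists were chosen with earlier results of these data known. Genes named by rule were Dyrk1a, every member, the 5 other origin genes with the smallest p in each direction, and the 5 genes nearest the members' mean profile. Mcm2, Mcm3, Mcm5, Mcm6, Orc5 and Fzr1 were named outside this rule, after their values were seen.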

Additional observations from a re-analysis of the deposited data

How the results depend on the processing

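The 10 origin factors had a fitted log2 change below 0 under all 13 alternatives, with a median between -0.22 and -0.17. Limma called 0 of them lower in the fit used above, whose arrays were centred but neither scaled nor weighted. The number was 4 with arrays scaled to the same spread, 4 with quantile normalization, 9 with array weights, and 0 to 5 with 1 array left out. Over all features the counts were 50 higher and 213 lower with scaled arrays, 61 and 199 with quantile normalization, 697 and 915 with array weights, and 0 to 108 higher and 0 to 336 lower with 1 array left out. The upper counts are those without replicate 2. With probes measured in at least 4 arrays the count called higher was 0, as Dyrk1a, with further probes in its mean, was at 1.51 (limma adjusted p = 0.0686). With whichever probes were measured it was at 1.16 and called. Leaving out replicate 1, 4 or 5 also ended its call, with log2 changes of 2.41, 2.30 and 2.63. The median of the other origin genes was -0.11 with every probe as its own feature and -0.19 to -0.14 with 1 array left out. Among the 5 named genes above 0, the sign turned in 4. Kat7 was at -0.00038 with scaled arrays, -0.023 with array weights, -0.0089 with whichever probes were measured, and from -0.019 to 0.053 with 1 array left out. Mcmbp was at -0.017 with scaled arrays, -0.0069 with quantile normalization, -0.021 with array weights, -0.0019 and -0.042 for single probes, and from -0.026 to 0.019 with 1 array left out. Orc3 was at -0.0036 with array weights, and Ddb1 ran from -0.027 without replicate 2 to 0.33 without replicate 3. Of the other origin genes below 0, Orc5 and Fzr1, named after their values were seen, reached 0.026 and 0.0060 with 1 array left out. The cause of these changes was not tested. Each array sets 1 Dyrk1a sample against 1 control sample, so its log2 ratio is already the difference within that pair. The fits kept this pairing, and no further paired analysis was made.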
